A study of Mus musculus with 3 samples.

Results

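The genes described here are 34 genes of the p53 response and of intrinsic apoptosis, chosen by name from the 32285 genes of the count matrices. They comprise 5 members of the p53 family and its regulators, 14 p53 targets of growth arrest, repair and metabolism, 7 p53 targets grouped as death receptor, membrane and other death genes, and 8 genes of the intrinsic apoptosis pathway. The transcriptomes of single cells were measured in dorsal skin of full thickness from wild-type C57BL/6J mice, labelled female and 8 weeks old when obtained, with 1 library in each of 3 conditions. The control library (CON) came from mice given vehicle without irradiation. The second library (UV) came from mice exposed every other day for 12 weeks to UVA at 0.60 mW/cm2 together with UVB at 3.5 mW/cm2 and given vehicle, and skin was taken 24 h after the last exposure. The third library (Rux) came from mice given the same exposures and treated after irradiation with an ointment of 1.5% ruxolitinib, an inhibitor of the Janus kinases. How many mice stand behind a library is not given in the sources used here, so a difference between libraries cannot be told apart from a difference between individual mice or between preparations.

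p53, encoded by Trp53, is a transcription factor that is held at a low level by Mdm2 and restrained by Mdm4, and DNA damage such as that made by ultraviolet light stabilises the protein rather than its mRNA. Stabilised p53 induces genes that halt the cell cycle, repair DNA and feed back on p53, and at stronger damage genes that open the mitochondrial route of cell death. In epidermis the response is known from sunburn cells, which are keratinocytes that undergo p53-dependent apoptosis, while the related factor p63 (Trp63) maintains basal keratinocytes.

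The matrices held 13170, 12411 and 11287 cells for CON, UV and Rux, with 165337289, 133972374 and 131570327 UMIs (unique molecular identifiers, which count captured RNA molecules). Pairs of libraries shared 28 to 50 cell barcodes. After filters and removal of doublets, 10777, 10231 and 9299 cells were clustered without the 34 genes, and clusters were named from marker genes. Fibroblast-like (FB-like) cells numbered 3393, 5074 and 4995 in CON, UV and Rux and keratinocyte-like (KC-like) cells 3623, 1883 and 1458. The libraries are labelled female, yet in all 3 the Y-linked gene Ddx3y was at 111 to 121 CPM and Xist at 0.0927 to 0.120 CPM, where CPM is UMIs per 1000000 UMIs of the summed cells. These values go against the label in every library alike.

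Levels below are CPM of UMIs summed over the cells of a class in a library. A gene entered a comparison when its mean over both sums was at least 10 CPM, and it was counted as higher or lower when the sums differed by at least 1.5-fold. Shares of all genes are given for these settings only and not for other scalings, filters or weightings. With 1 library per condition there is no test across animals. The 95% intervals in brackets are exact and cover counting error only.

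RefSeq promoter windows, reaching from 250 bases before to 50 bases after each transcription start on GRCm38.p6, were available for 27 of the 34 genes. The consensus of the p53 half-site, the 10-base element that p53 binds as a tandem pair and whose consensus reads alike on both strands, occurred in the windows of 8 genes, which is 29.6% of the 27. The same search found it in 9.55% of the 27025 genes with a window and in 8.36% of all 32851 windows. The 8 genes were Aen, Bax, Ccng1, Ei24, Mdm2, Polk, Sesn1 and Trp53. A match describes letters in the window and is not a measured binding site. Windows of 4 genes on which the comparisons below turn are shown 5′ to 3′ on the strand of the gene, with the match in capitals: Ccng1 on the minus strand at chr11:40755237-40755536, Mdm2 on the minus strand at chr10:117710709-117711008, Bax on the minus strand at chr7:45466849-45467148 and Trp53 on the plus strand at chr11:69580109-69580408.
Ccng1: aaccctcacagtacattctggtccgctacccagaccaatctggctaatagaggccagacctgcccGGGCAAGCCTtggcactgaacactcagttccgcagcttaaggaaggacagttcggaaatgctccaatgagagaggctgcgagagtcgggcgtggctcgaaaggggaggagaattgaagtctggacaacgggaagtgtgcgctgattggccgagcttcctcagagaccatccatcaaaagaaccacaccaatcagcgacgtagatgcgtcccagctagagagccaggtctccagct
Mdm2: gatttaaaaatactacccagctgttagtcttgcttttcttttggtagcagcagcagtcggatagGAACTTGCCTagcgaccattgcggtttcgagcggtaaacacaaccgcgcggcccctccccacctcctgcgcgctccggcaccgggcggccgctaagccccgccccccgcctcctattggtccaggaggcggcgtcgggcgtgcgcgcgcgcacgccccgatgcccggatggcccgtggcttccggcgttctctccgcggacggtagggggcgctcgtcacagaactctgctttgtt
Bax: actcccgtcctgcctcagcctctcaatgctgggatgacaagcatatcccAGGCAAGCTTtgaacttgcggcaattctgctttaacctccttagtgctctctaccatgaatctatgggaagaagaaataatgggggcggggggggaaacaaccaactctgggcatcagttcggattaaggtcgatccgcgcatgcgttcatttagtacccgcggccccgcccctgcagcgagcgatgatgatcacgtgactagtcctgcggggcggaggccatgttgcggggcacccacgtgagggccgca
Trp53: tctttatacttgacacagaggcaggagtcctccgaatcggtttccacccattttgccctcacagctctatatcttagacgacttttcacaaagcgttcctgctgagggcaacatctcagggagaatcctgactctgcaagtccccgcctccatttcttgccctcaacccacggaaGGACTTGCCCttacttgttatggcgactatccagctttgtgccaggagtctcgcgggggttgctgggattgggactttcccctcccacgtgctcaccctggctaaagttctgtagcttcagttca
The matches begin 185, 186, 201 and 75 bases before the start of Ccng1, Mdm2, Bax and Trp53, so that 3 of them lie at a like distance. Of the 9 genes that were lower in FB-like cells of UV than of CON, described below, 7 had a window and 1, Trp53, held a match.

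The 9 cell classes that had 50 cells or more in each library were compared first, and the 34 genes differed in the class where they were highest. Trp53 was highest in KC-like cells, at 113, 102 and 93.8 CPM in CON, UV and Rux, and no other class reached the lowest of these in any library. Trp63 and Perp, a desmosomal target of p53 and p63, were also highest in KC-like cells, with means over the libraries of 175 and 1003 CPM. Sebaceous gland-like cells, too few in Rux to be ranked, had Trp63 at 231 CPM in CON and 259.7 in UV. These values lay above those of KC-like cells in the same libraries. Gdf15, a secreted stress cytokine, was highest in lymphatic endothelial-like cells, at 2153, 1676 and 1204 CPM. Mdm2, the ubiquitin ligase that degrades p53, was highest in myeloid-like cells, at 238, 265 and 326 CPM, above its level in every library of the other 8 classes.

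Receptors of the list differed in their classes. Tnfrsf10b, the mouse death receptor for TRAIL, had a mean of 99.2 CPM in blood vessel endothelial-like (VEC-like) and 64.8 CPM in lymphatic endothelial-like (LEC-like) cells, with no overlap between the libraries of these classes and those of the class ranked next. Fas, the receptor for Fas ligand, was highest in VEC-like cells at 138, 126 and 126 CPM, and had a mean of 90.9 CPM in pericyte-like, 65.8 in FB-like and 8.24 in LEC-like cells. Eda2r, a receptor of the tumour necrosis factor family, was highest in VEC-like cells at a mean of 66.3 CPM, with libraries that overlapped those of LEC-like cells. Bcl2, the founding inhibitor of the mitochondrial route, was highest in lymphocyte-like cells at a mean of 144 CPM, as was Trp53inp1, a promoter of p53-dependent death and autophagy, at 228 CPM. Apaf1, the core of the apoptosome, and Ephx1, a detoxifying epoxide hydrolase, were highest in LEC-like cells at means of 164 and 129 CPM. Zmat3, an RNA-binding target of p53, was highest in FB-like cells at 19.8 CPM.

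Trp73, Pidd1 and Casp9 were low everywhere and had their highest class mean at 5.58, 3.44 and 7.08 CPM.

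**Figure D1:**
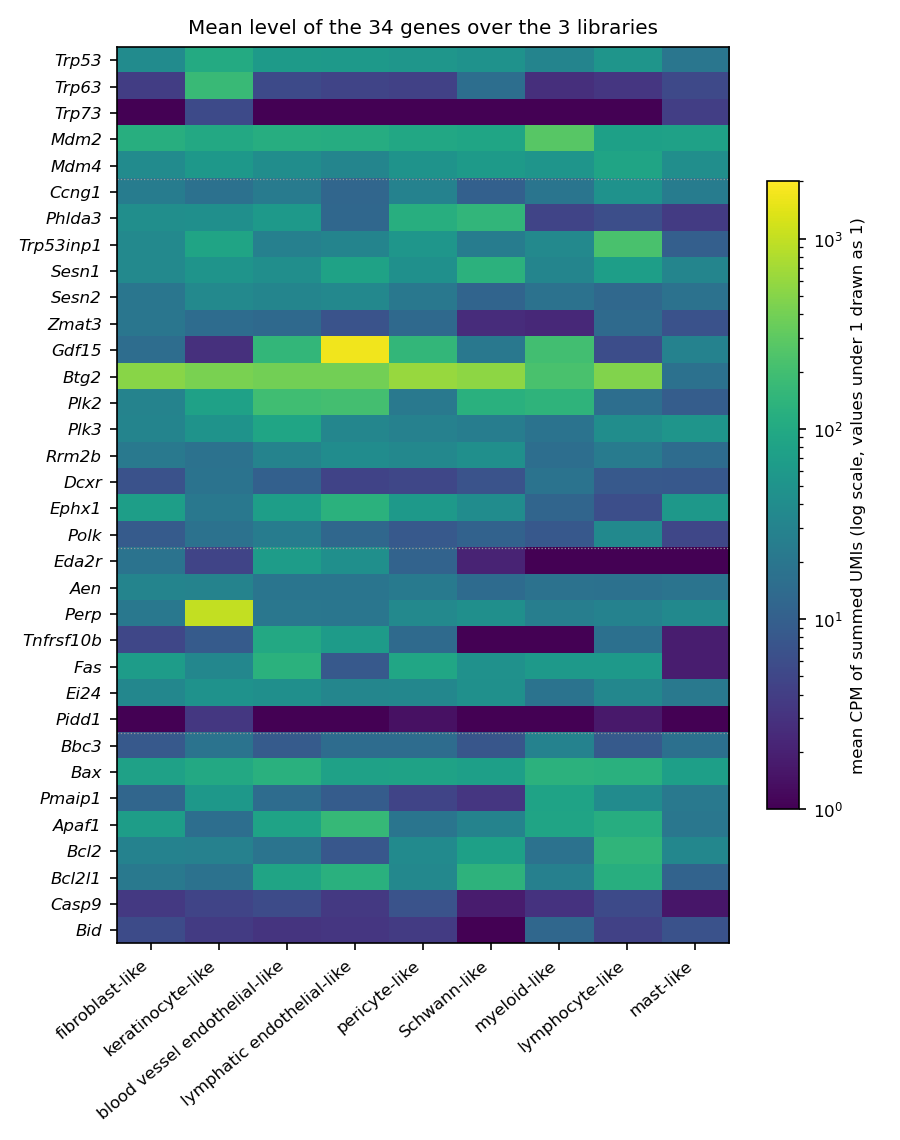
Mean CPM of the 34 genes (rows, grouped by role with dotted lines) over the 3 libraries in 9 cell classes (columns), on a log color scale with values under 1 drawn as 1. Gdf15 stands out in lymphatic endothelial-like cells at 1678 CPM and Perp in keratinocyte-like cells at 1003 CPM.

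FB-like and KC-like cells were then compared within each library. In CON, 28 of the 34 genes could be compared, of which 7 were higher in FB-like cells and 8 lower, beside 25.0% of all 9147 genes compared that were higher and 38.5% that were lower. In UV the counts were 2 higher and 14 lower of 27, beside 25.5% and 41.9% of all genes. In Rux they were 4 higher and 12 lower of 28, beside 25.7% and 41.0%. The median log2 ratio of FB-like over KC-like cells was -0.10, -0.64 and -0.40 for the 34 genes in CON, UV and Rux, beside -0.32, -0.36 and -0.34 over all genes. A scaling by the median of ratios instead of by totals shifted these comparisons by -0.17, -0.27 and -0.33 on the log2 scale. It gave 3 higher and 9 lower genes in UV and 10 higher and 9 lower genes in Rux. These counts have no share of all genes at that scaling beside them.

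Apaf1, Ephx1 and Eda2r lay on the fibroblast side. Apaf1 was at 95.9, 64.3 and 47.3 CPM in FB-like cells (CON, UV and Rux) and at 14.0, 18.8 and 14.1 CPM in KC-like cells, so the classes did not overlap, and the log2 ratio was 2.78, 1.77 and 1.74. Ephx1 gave log2 ratios of 2.05, 1.84 and 1.28. Eda2r gave 2.99 in CON and 1.56 in Rux, and in UV its mean was under 10 CPM. In CON, Gdf15 at 2.26, Fas at 1.50, Ccng1 at 1.04 and Btg2 at 0.65 were higher in FB-like cells too, and in Rux Bcl2l1 at 0.66. Fas was inside 1.5-fold in UV and Rux, at 0.38 and 0.57. Btg2 in CON went down to -0.23 under other settings.

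On the keratinocyte side lay Trp63, Perp, Pmaip1, Trp53, Trp53inp1, Plk2, Sesn2 and Bbc3, each past 1.5-fold in all 3 libraries. Under other settings Sesn2 came inside 1.5-fold in all 3 libraries, down to -0.22 in CON in cells with under 1% immediate-early UMIs, Bbc3 in Rux, at -0.44 under median-of-ratios scaling, and Plk2 in Rux, at -0.53 in the cells with few immediate-early UMIs. Pmaip1 and Bbc3 encode NOXA and PUMA, BH3-only proteins through which p53 triggers the mitochondrial route, and Sesn2 is a stress-induced inhibitor of mTOR signalling. Pmaip1 was at 16.3, 9.59 and 11.3 CPM in FB-like cells and at 51.2, 61.8 and 58.8 CPM in KC-like cells. Trp53 was at 49.7, 32.6 and 36.2 CPM in FB-like cells, and its log2 ratio of FB-like over KC-like cells was -1.19, -1.65 and -1.37. Perp was at 29.5, 16.3 and 17.5 CPM in FB-like cells against 918, 888 and 1202 CPM in KC-like cells.

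The low values of Trp63 and Perp in FB-like cells moved with keratinocyte RNA. The 10 keratinocyte markers summed to 455, 179.6 and 196 CPM in FB-like cells (CON, UV and Rux), with all 10 detected, and Krt14 was at 114, 51.4 and 51.2 CPM. Trp63 followed at 6.60, 2.49 and 2.90 CPM. In the other direction, the 8 fibroblast markers summed to 565, 779 and 631 CPM in KC-like cells. In their own classes the same lists summed to 10814, 7702 and 10780 CPM for keratinocyte and 33914, 26679 and 26722 CPM for fibroblast markers. The part of such RNA in the levels was not tested.

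**Figure D2:**
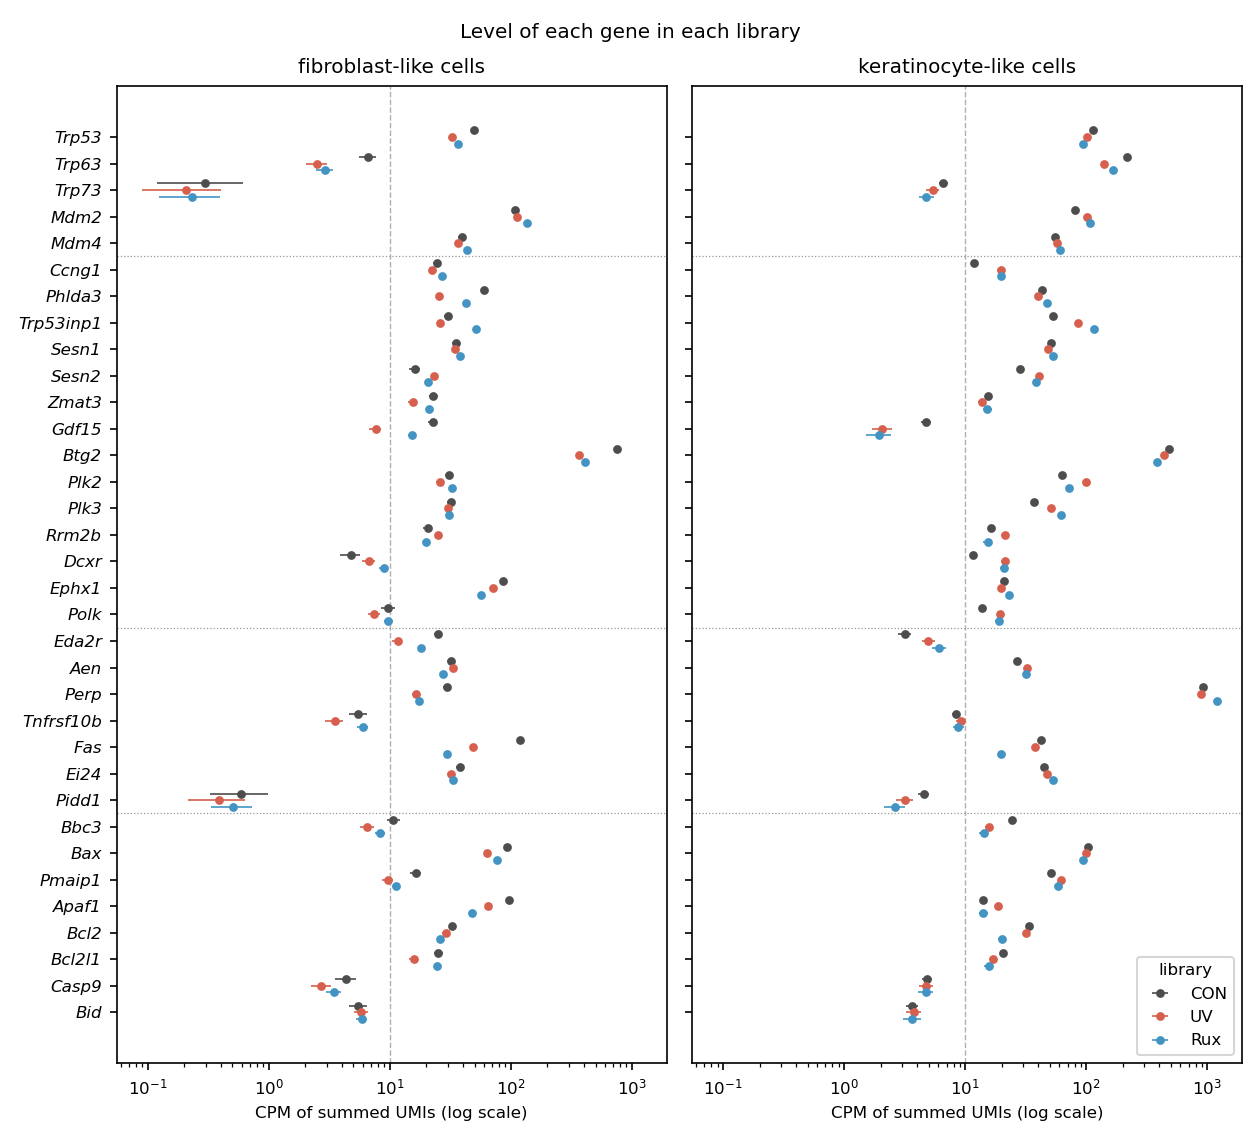
CPM of each gene (log scale, with 95% counting intervals) in CON, UV and Rux for fibroblast-like (left) and keratinocyte-like (right) cells, with a dashed line at 10 CPM. In fibroblast-like cells Fas runs from 119 in CON to 48.9 in UV and 29.5 in Rux, while in keratinocyte-like cells Ccng1 lies at 11.9 in CON and at 19.6 and 19.9 in UV and Rux.

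In FB-like cells, Gdf15, Fas, Phlda3, Eda2r, Btg2, Perp, Pmaip1, Bcl2l1 and Trp53 were lower in UV than in CON. Of 25 genes compared, 0 were higher in UV than in CON and 9 were lower, beside 6.22% and 8.55% of all 8370 genes compared. The median log2 ratio was -0.27 for the 25 genes and -0.11 over all genes. Median-of-ratios scaling shifted this comparison by -0.14 and gave 1 higher gene, Sesn2, and 7 lower genes. The 9 genes that did not reach a mean of 10 CPM were Trp63, Trp73, Bbc3, Tnfrsf10b, Dcxr, Pidd1, Polk, Casp9 and Bid. Of these, Bbc3 was at 10.7, 6.48 and 8.32 CPM in CON, UV and Rux, Polk at 9.68, 7.43 and 9.70 CPM and Bid, a BH3-only protein cleaved below death receptors, at 5.50, 5.76 and 5.84 CPM.

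Among the p53 family and its regulators, Trp53 itself was at 49.7 CPM in CON, 32.6 in UV and 36.2 in Rux, a log2 ratio of UV over CON of -0.61 [-0.73, -0.49]. Mdm2 was at 109, 113 and 136 CPM and Mdm4 at 39.1, 36.8 and 43.1 CPM, both within 1.5-fold. The negative regulators of p53 thus stood near their control level where the mRNA of p53 was lower.

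Of the 14 targets of arrest, repair and metabolism, 12 were compared and 3 were lower. Gdf15 was at 22.7, 7.61 and 15.2 CPM in CON, UV and Rux, with a log2 ratio of UV over CON of -1.57 [-1.78, -1.37]. Phlda3, an inhibitor of Akt, was at 60.3, 25.4 and 42.9 CPM, with a ratio of -1.25 [-1.37, -1.13]. Btg2, an antiproliferative gene that also belongs to the immediate-early response, was at 756, 366 and 411 CPM, with a ratio of -1.05 [-1.08, -1.02]. For each of these 3 genes Rux lay between UV and CON. Sesn2 was at 16.1, 23.2 and 20.6 CPM, a ratio of 0.53 [0.36, 0.71], and Rrm2b, a ribonucleotide reductase subunit for DNA repair, at 20.5, 25.1 and 19.7 CPM, a ratio of 0.29 [0.14, 0.45]. These were the highest ratios among the 25 genes. Zmat3 was at 22.7, 15.4 and 21.1 CPM and fell short of the 1.5-fold limit. Ccng1, Trp53inp1, Sesn1, Plk2, Plk3 and Ephx1 had ratios from -0.27 to -0.02.

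Of the 7 targets among death receptor, membrane and other death genes, 5 were compared and 3 were lower. Fas was at 119 CPM in CON, 48.9 in UV and 29.5 in Rux, with a ratio of UV over CON of -1.28 [-1.37, -1.20]. Eda2r was at 25.1, 11.6 and 18.1 CPM, with a ratio of -1.12 [-1.30, -0.94]. Perp had a ratio of -0.85 [-1.01, -0.70] and moved with the keratinocyte markers given above. Aen, an apoptosis-enhancing nuclease, and Ei24, a membrane protein of the endoplasmic reticulum, had ratios of 0.06 and -0.25.

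Of the 8 intrinsic apoptosis genes, 5 were compared and 2 were lower, 1 on each side of the pathway. Pmaip1, which promotes death, had a ratio of -0.77 [-0.98, -0.56] and Bcl2l1, whose main product Bcl-xL protects, was at 25.2, 15.8 and 24.6 CPM with a ratio of -0.68 [-0.84, -0.51]. Just inside the 1.5-fold limit lay Apaf1 at 95.9, 64.3 and 47.3 CPM, a ratio of -0.58, and Bax, the pore-forming effector of mitochondrial permeabilisation, at 92.8, 63.1 and 76.8 CPM, a ratio of -0.56. Bcl2 was at 32.8, 28.9 and 25.9 CPM.

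**Figure D3:**
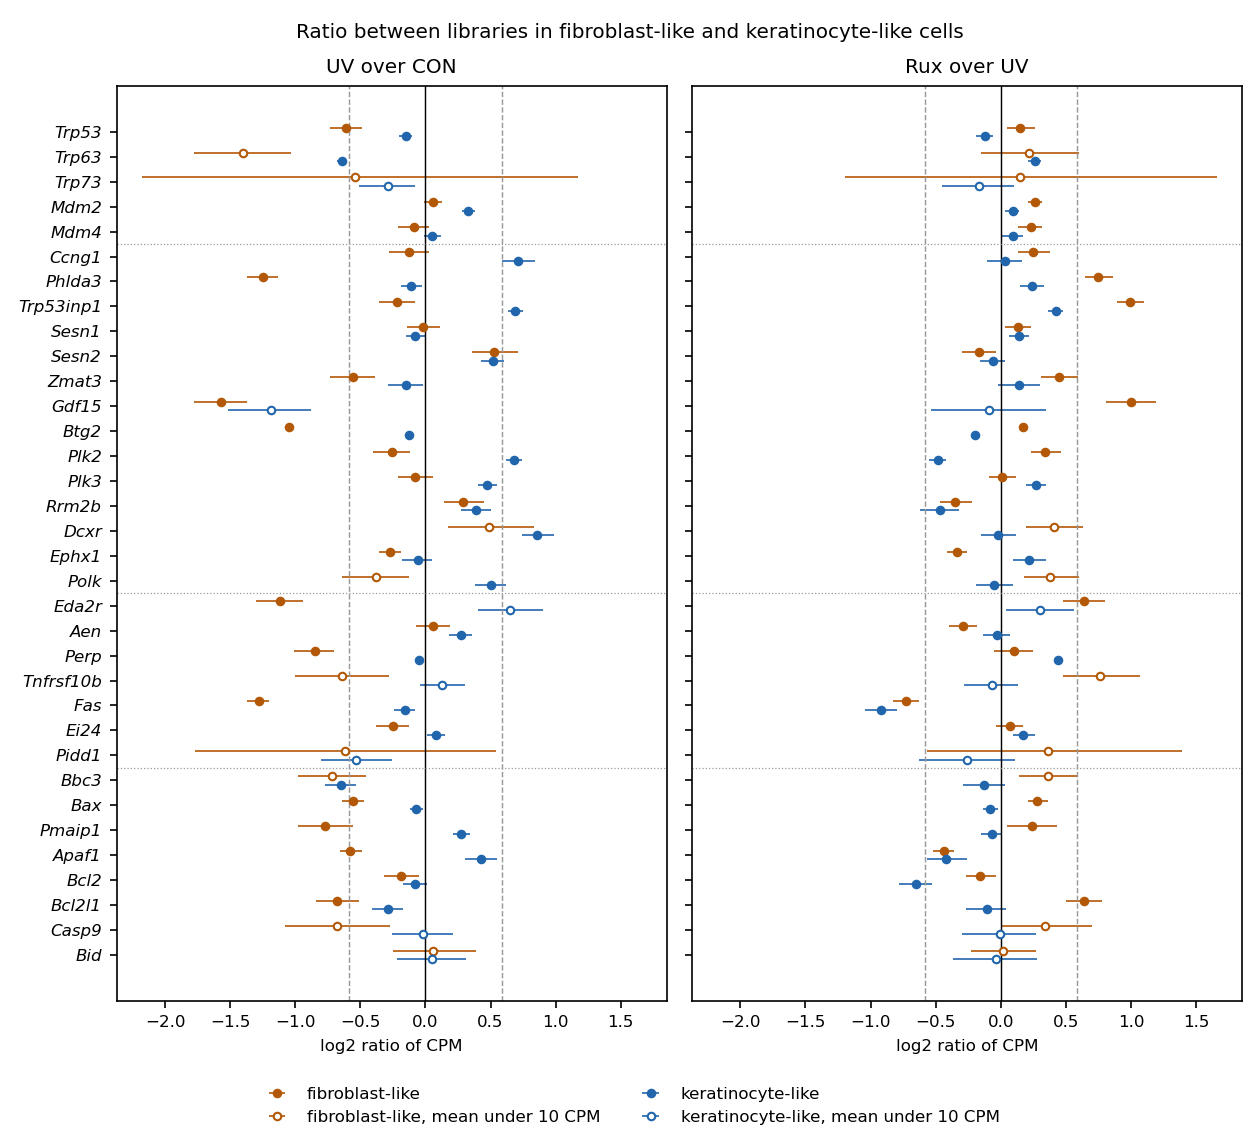
Log2 ratio of CPM with 95% counting intervals for UV over CON (left) and Rux over UV (right) in fibroblast-like and keratinocyte-like cells, open where the mean was under 10 CPM; dashed lines mark 1.5-fold. In UV over CON, Fas reads -1.28 in fibroblast-like and -0.16 in keratinocyte-like cells, and in Rux over UV it reads -0.73 and -0.92.

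The makeup of the FB-like class differed between libraries, so the ratios were read within its clusters. A cluster led by Myoc and Abca8a held 43.4% of FB-like cells in CON, 14.3% in UV and 16.5% in Rux, and one led by Sntg1 and Smpd3 held 3.74%, 21.2% and 7.13%. Of 8 clusters with at least 50 cells in CON and UV, Trp53 was lower in UV in 8, with log2 ratios from -0.93 to -0.37, and Fas in 8, from -1.12 to -0.52. Btg2 was lower in 8 of 8 clusters, from -1.93 to -0.30, and Gdf15 in the 7 where it could be compared, from -2.43 to -0.58. Sesn2 was higher in 8 of 8 clusters, from 0.06 to 0.91. These genes kept 1 direction in every cluster compared.

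Phlda3, Eda2r and Bcl2l1 did not keep 1 direction in every cluster, and the part of the makeup in their ratios was not tested. Phlda3 was lower in 4 of the 6 clusters where it could be compared, with ratios from -2.97 to 0.44. Its level in CON ran from 7.59 to 148 CPM between clusters. The cluster led by Igfbp2 and Col1a1 held 379, 75 and 275 cells in CON, UV and Rux. Several targets had a higher CPM in UV than in CON there, each by under 1.5-fold. Phlda3 was at 60.5, 82.0 and 161 CPM, Eda2r at 50.5, 60.5 and 91.4 and Mdm2 at 162, 209.9 and 374. Ccng1 was at 36.5, 46.9 and 63.5 CPM and Zmat3 at 43.5, 63.5 and 80.6. Lower in UV there by over 1.5-fold were Fas at 137, 64.4 and 47.4 CPM and Gdf15 at 58.7, 27.3 and 49.1. Trp53, at 37.0, 28.3 and 33.5 CPM, was lower in UV by under 1.5-fold. The UV sums of this cluster were small, with 62 UMIs for Eda2r, 48 for Ccng1 and 29 for Trp53. Eda2r was lower in 5 of 6 clusters and Bcl2l1 in 6 of 8. The clusters led by Sntg1 and by Sult1e1 had means under 10 CPM for Phlda3 and Eda2r, and both genes were lower in UV there too. Phlda3 went from 7.59 to 3.05 and from 10.2 to 3.94 CPM. Eda2r went from 6.32 to 4.46 and from 12.8 to 5.62 CPM. With clusters weighted by their share of UMIs in CON, the ratio of UV over CON was -0.25 for Phlda3, -0.30 for Eda2r, -0.23 for Bcl2l1 and -0.51 for Pmaip1, all inside 1.5-fold. The 5 genes that stayed lower were Trp53 at -0.59, just past 1.5-fold, Perp at -0.83, Fas at -1.01, Gdf15 at -1.12 and Btg2 at -0.68. No share of all genes at that weighting stands beside this count. The weighting does not address the keratinocyte markers with which Perp moved, nor the immediate-early response to which Btg2 belongs.

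**Figure D4:**
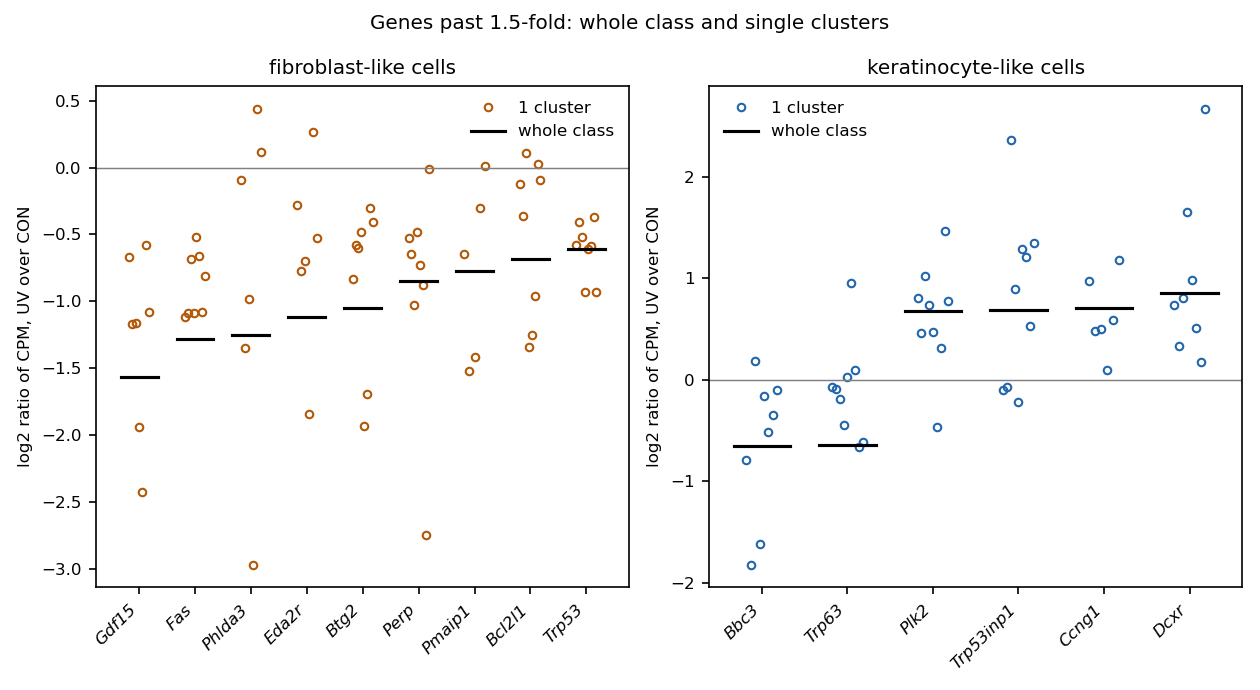
Log2 ratio of UV over CON for the genes past 1.5-fold in the whole class (bars) and in each single cluster with at least 50 cells in both libraries and a mean of at least 10 CPM (circles), for fibroblast-like (left) and keratinocyte-like (right) cells. Fas and Trp53 lie below 0 in 8 of 8 fibroblast-like clusters, and Phlda3 spans -2.97 to 0.44.

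Immediate-early genes, which respond to tissue handling and dissociation as well as to stimuli, moved with these results. The 15 listed genes summed to 24097, 13317 and 14700 CPM in FB-like cells (CON, UV and Rux), and 9 of the 15 were lower in UV than in CON, among them Egr1 at 3431 and 1189 CPM. In KC-like cells they summed to 9775, 8095 and 7396 CPM and 1 of the 15 was lower. In the 948, 2808 and 2377 FB-like cells with under 1% of UMIs in these genes, a choice made after seeing the data, the ratio of UV over CON was -1.05 for Fas, -1.64 for Phlda3, -0.67 for Trp53 and -1.56 for Gdf15, but -0.28 for Btg2 and -0.19 for Pmaip1. The 10 proliferation genes summed to 236, 119 and 93.6 CPM in FB-like cells, and their part in the result was not tested.

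Rux was compared with UV in the same cells. This comparison shares the UV library with UV over CON, so the ratios of the comparisons are not independent of each other. Of 25 genes compared, 5 were higher in Rux and 1 was lower, beside 3.42% and 5.20% of all 8156 genes. The median log2 ratio was 0.17 for the 25 genes and 0.03 over all genes. The 5 higher genes were Gdf15 at 1.00 [0.81, 1.19], Trp53inp1 at 0.99 [0.89, 1.10], Phlda3 at 0.75 [0.65, 0.86], Eda2r at 0.64 [0.48, 0.80] and Bcl2l1 at 0.64 [0.50, 0.78].

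Trp53inp1 differed from the other 4 in that it had not been lower in UV: it was at 30.2, 26.0 and 51.8 CPM in CON, UV and Rux, so Rux lay above both. It was higher in Rux in 10 of 10 FB-like clusters, with ratios from 0.04 to 1.87, and Bcl2l1 was higher in the 9 clusters where it could be compared. Phlda3 was higher in 3 of 6 clusters and Eda2r in 4 of 7, and with clusters weighted as in CON their ratios of Rux over UV were 0.18 and 0.34. Gdf15 had a ratio of 0.21 in the cells with under 1% of UMIs in immediate-early genes.

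Fas was the single gene that was lower in Rux than in UV, with a log2 ratio of -0.73 [-0.83, -0.63]. It was lower in 10 of 10 FB-like clusters, from -1.40 to -0.04. Fas thus went from 119 CPM in CON to 48.9 in UV and 29.5 in Rux. Apaf1 shared this order, at 95.9, 64.3 and 47.3 CPM, with ratios inside 1.5-fold at both steps. Trp53, Perp, Pmaip1 and Btg2 had ratios of Rux over UV of 0.15, 0.10, 0.24 and 0.17 and were within 1.5-fold of UV.

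KC-like cells gave another pattern. This class held follicular as well as interfollicular keratinocytes. A hair follicle cluster led by Krt71 and Krt28 held 4.22%, 8.71% and 7.06% of its cells in CON, UV and Rux. One led by Krt71 and Tchh held 1.30%, 7.97% and 11.4%, and one led by Krt35 held 2.48%, 7.22% and 6.65%. Ratios within clusters are given below. Of 27 genes compared, 4 were higher in UV than in CON and 2 were lower, beside 4.21% and 3.99% of all 8638 genes. The median log2 ratio was 0.05 for the 27 genes and -0.05 over all genes. The genes under a mean of 10 CPM were Trp73, Gdf15, Eda2r, Tnfrsf10b, Pidd1, Casp9 and Bid.

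All 4 higher genes were targets of arrest, repair and metabolism, a group with 13 members compared. Dcxr, an oxidoreductase of carbonyl and sugar metabolism, was at 11.6, 21.1 and 20.9 CPM in CON, UV and Rux, a log2 ratio of UV over CON of 0.86 [0.74, 0.99]. Ccng1, a cyclin that partners with phosphatase 2A and acts on Mdm2, was at 11.9, 19.6 and 19.9 CPM, a ratio of 0.71 [0.59, 0.84]. Trp53inp1 was at 53.3, 85.7 and 115 CPM, a ratio of 0.69 [0.63, 0.75]. Plk2, a stress-induced polo-like kinase, was at 62.4, 100 and 71.6 CPM, a ratio of 0.68 [0.62, 0.74]. Dcxr and Ccng1 were near the same level in Rux as in UV, Trp53inp1 was higher still in Rux but within 1.5-fold of UV, and Plk2 lay nearer to CON. Within clusters, Trp53inp1 was higher in Rux than in UV in 4 of 9 and lower in 5, with ratios from -0.81 to 0.70.

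Several further members had ratios between 0.27 and 0.52 and stayed inside the limit. Sesn2 was at 28.2, 40.4 and 38.7 CPM, a ratio of 0.52 [0.43, 0.60], Polk, a translesion DNA polymerase, at 13.8, 19.5 and 18.9 CPM, a ratio of 0.50, and Plk3, another polo-like kinase, at 36.8, 51.0 and 61.5 CPM, a ratio of 0.47. Mdm2 was at 81.0, 102 and 108 CPM, a ratio of 0.33 [0.28, 0.38]. Rrm2b, Apaf1, Aen and Pmaip1 had ratios of 0.39, 0.43, 0.27 and 0.27. Sesn1, Zmat3, Phlda3, Btg2, Ephx1, Ei24, Perp, Fas, Mdm4, Bax, Bcl2 and Bcl2l1 had ratios from -0.29 to 0.08.

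The lower genes were Trp63 at 218, 139 and 167 CPM, a ratio of -0.64 [-0.68, -0.61], and Bbc3 at 24.5, 15.6 and 14.2 CPM, a ratio of -0.65 [-0.77, -0.53]. Trp53 was at 113, 102 and 93.8 CPM, a ratio of -0.15 [-0.20, -0.10]. Bbc3 was lower while Pmaip1, which encodes another BH3-only protein that p53 induces, was at 51.2, 61.8 and 58.8 CPM.

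Within the 9 KC-like clusters with at least 50 cells in CON and UV, Ccng1 was higher in the 6 where it could be compared, from 0.10 to 1.18, and Dcxr in 8 of 8, from 0.18 to 2.67. Plk2 and Sesn2 were higher in 8 of 9 clusters and Rrm2b in 9 of 9. Trp53inp1 was higher in 6 of 9, with ratios from -0.22 to 2.36. Trp53 was lower in 9 of 9, from -0.48 to -0.10, and Bbc3 in 7 of 8. Trp63 was lower in 6 of 9, with ratios from -0.66 to 0.95. A cluster led by Fcgbp and Col17a1 held 460 KC-like cells in CON, 15 in UV and 56 in Rux, and one led by Krt77 and Krt10 held 250, 7 and 22, while the 8 markers of differentiated epidermis summed to 3086, 735 and 1842 CPM. In the clusters that had 50 cells or more in each library, chosen after seeing the data, the ratio of UV over CON was 0.72 for Ccng1, 1.00 for Dcxr, 0.98 for Trp53inp1, 0.69 for Plk2 and -0.70 for Bbc3, and -0.41 for Trp63, inside 1.5-fold. In the 2221 and 1378 KC-like cells of CON and UV with under 1% of UMIs in immediate-early genes, Trp53inp1 had a ratio of -0.05.

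In Rux over UV, of 27 genes compared in KC-like cells 0 were higher and 2 were lower in Rux than in UV, beside 2.29% and 1.77% of all 8585 genes. The median log2 ratio was -0.03 for the 27 genes and -0.02 over all genes. Fas was at 42.1, 37.7 and 19.9 CPM in CON, UV and Rux, a ratio of Rux over UV of -0.92 [-1.04, -0.80], and it was lower in the 5 clusters where it could be compared. Bcl2 was at 33.6, 31.7 and 20.2 CPM, a ratio of -0.65 [-0.78, -0.53], and lower in 8 of 8 clusters, but its ratio lay between -0.55 and -0.34, inside 1.5-fold, under the strict and loose cell filters, at resolution 0.8, with clusters weighted as in CON and in cells with under 1% immediate-early UMIs. Rrm2b at -0.47, Plk2 at -0.48 and Apaf1 at -0.42 were inside the limit. Perp was at 918, 888 and 1202 CPM, a ratio of 0.44 [0.42, 0.46], and it was higher in 8 of 9 clusters. Fas was thus lower in Rux than in UV in both FB-like and KC-like cells, while between CON and UV it was past 1.5-fold in FB-like and not in KC-like cells, a difference between the classes that was not tested.

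The genes that were past 1.5-fold in one class between CON and UV were read side by side in the other. Fas, Btg2 and Phlda3, with ratios of -1.28, -1.05 and -1.25 in FB-like cells, had ratios of -0.16, -0.13 and -0.11 in KC-like cells. Ccng1, Plk2 and Trp53inp1, with ratios of 0.71, 0.68 and 0.69 in KC-like cells, had ratios of -0.13, -0.26 and -0.22 in FB-like cells. These are ratios of whole classes. As given above, Phlda3 in FB-like cells was at -0.25 with clusters weighted as in CON. Btg2 in FB-like cells with under 1% immediate-early UMIs was at -0.28, and Trp53inp1 changed sign in KC-like cells of that kind. Bbc3, lower in KC-like cells, had a ratio of -0.72 [-0.98, -0.46] in FB-like cells at a mean under 10 CPM, and Gdf15, lower in FB-like cells, had -1.19 [-1.52, -0.88] in KC-like cells at 4.73 and 2.07 CPM. Trp63, Eda2r and Dcxr were likewise under that mean in one of the classes. Sesn2 was alike in both, at 0.53 and 0.52.

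Shares of cells with a UMI gave the same order for Fas. After every cell was thinned to 2000 UMIs, which left out 136 to 258 FB-like cells per library, Fas was seen in 18.0% [16.7, 19.4], 9.05% [8.26, 9.90] and 5.35% [4.73, 6.02] of FB-like cells in CON, UV and Rux. The shares without thinning were 40.1%, 24.3% and 22.2% at median depths of 6140, 7326 and 9977 UMIs. In KC-like cells the thinned shares for Fas were 8.14%, 6.44% and 2.31%, and without thinning 38.2%, 35.2% and 23.2% at median depths of 17849, 21079 and 21414 UMIs. Trp53inp1 was seen in 11.4%, 15.5% and 19.5% of thinned KC-like cells and in 50.6%, 50.5% and 52.8% without thinning. Btg2 was seen in 60.5%, 39.9% and 44.0% of thinned FB-like cells and in 79.2%, 68.1% and 76.7% without thinning. Trp63, a gene of basal keratinocytes, was seen in 1.45%, 0.498% and 0.515% of thinned FB-like cells, and the source of these UMIs was not tested.

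Blood vessel endothelial-like cells were examined, with every other class that held at least 1500000 UMIs in CON and in UV, after the levels had been seen. Of 28 genes compared in VEC-like cells, 9 were higher in UV than in CON and 1 was lower, beside 7.20% and 5.69% of all 8473 genes. The median log2 ratio was 0.36 for the 28 genes and 0.01 over all genes. VEC-like cells numbered 484, 655 and 244 in CON, UV and Rux.

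Phlda3 was at 15.7 CPM in VEC-like cells of CON, 82.0 in UV and 78.9 in Rux, a log2 ratio of UV over CON of 2.37 [1.97, 2.82]. In FB-like cells as a whole this gene was lower in UV, at -1.25, but with clusters weighted as in CON it was at -0.25, inside 1.5-fold. Mdm2 was at 80.5, 149 and 113 CPM, a ratio of 0.88 [0.69, 1.09], and Ccng1 at 14.2, 26.9 and 29.3 CPM, a ratio of 0.91 [0.44, 1.41]. Eda2r was at 39.8, 76.3 and 82.9 CPM, a ratio of 0.93 [0.65, 1.23], and Gdf15 at 91.6, 167 and 202 CPM, a ratio of 0.86 [0.68, 1.05]. Dcxr, Pmaip1, Trp53inp1 and Zmat3 had ratios of 1.14, 0.81, 0.71 and 0.63. Bax had a ratio of 0.51 [0.33, 0.70], inside the limit. Trp53 itself was at 70.4 CPM in CON and 58.2 in UV, a ratio of -0.27 [-0.52, -0.03].

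The 3 VEC-like clusters differed. In the cluster led by capillary genes such as Gpihbp1, with 223, 383 and 131 cells, Phlda3 was at 6.82, 114 and 97.4 CPM, Ccng1 at 10.6, 35.2 and 33.6 CPM, Eda2r at 22.7, 70.0 and 92.9 CPM, Mdm2 at 78.8, 169 and 129.9 CPM and Bax at 105, 174 and 156 CPM. The log2 ratio of UV over CON in these cells was 3.99 [3.12, 5.21] for Phlda3, 1.69 [0.91, 2.66] for Ccng1, 1.60 [1.06, 2.23] for Eda2r, 1.10 [0.79, 1.43] for Mdm2 and 0.72 [0.44, 1.01] for Bax. In the cluster in which Rgs5 was among the leading genes, with 80, 182 and 63 cells, Phlda3 was at 25.9, 64.3 and 75.0 CPM, Mdm2 at 91.9, 151 and 113 CPM and Eda2r at 29.4, 64.7 and 98.0 CPM. In the cluster led by the venular genes Sele and Selp, with 181, 90 and 50 cells, Phlda3 was at 18.1, 29.0 and 52.4 CPM, Mdm2 at 74.8, 82.1 and 82.6 CPM, Eda2r at 64.5, 124 and 38.3 CPM and Gdf15 at 25.2, 19.3 and 2.02 CPM. Trp53inp1 had ratios of UV over CON of 0.99, 1.15 and -0.87 in the clusters led by Gpihbp1, by Rgs5 and by Sele, and Zmat3 of 0.73, 0.33 and 0.82. Phlda3, Mdm2, Ccng1, Eda2r and Bax had ratios above 0 in 3 of 3 clusters. In the cluster led by Sele, the intervals of all of these but Eda2r at 0.95 [0.51, 1.38] included 0. They were 0.68 [-0.21, 1.57] for Phlda3, 0.14 [-0.34, 0.60] for Mdm2, 0.35 [-0.61, 1.28] for Ccng1 and 0.07 [-0.33, 0.46] for Bax. Ccng1 in the cluster with Rgs5 was at 0.35 [-0.57, 1.46]. The cluster with Rgs5 was mixed in its markers. On a mean log2 scale it lay 6.32 above the average cluster for endothelial markers and 5.01 above it for pericyte markers.

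Other transcripts also differed between the VEC-like sums. The 6 pericyte markers summed to 1006, 1834 and 1734 CPM in CON, UV and Rux and the 4 haemoglobin genes to 24.4, 847 and 181 CPM, while immediate-early genes summed to 15451, 13611 and 13543 CPM. Phlda3 in pericyte-like cells themselves was at 105, 89.8 and 160.0 CPM. The 6 endothelial markers summed to 5161, 5439 and 5656 CPM, and the part of the other transcripts in the ratios was not tested. With clusters weighted as in CON, the ratio of UV over CON was 2.15 for Phlda3, 0.72 for Mdm2, 0.89 for Ccng1 and 1.15 for Eda2r, and in cells with under 1% of UMIs in immediate-early genes it was 3.47, 1.52, 1.75 and 1.77. Pmaip1 and Gdf15 at 0.48 and Trp53inp1 at 0.47 came inside 1.5-fold with clusters weighted as in CON, and Ccng1 at 0.32 and Pmaip1 at 0.14 did when every cell was thinned to 2000 UMIs.

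Fas, which was lower in UV in FB-like cells, was at 138 and 126 CPM in CON and UV in VEC-like cells, a ratio of -0.13.

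In the other 4 classes the counts were smaller. LEC-like cells had 2 genes higher and 3 lower of 25, beside 6.67% and 4.81% of all genes: Eda2r had a ratio of 0.69 [0.42, 0.96] and Phlda3 of 0.61 [0.04, 1.18], while Btg2 at -0.62, Fas at -0.77 and Perp at -1.81 were lower. Median-of-ratios scaling gave 1 higher and 3 lower genes there. Myeloid-like cells had 0 higher and 5 lower of 25, beside 5.66% and 12.5% of all genes, led by Gdf15 at 287 CPM in CON and 140.1 in UV, a ratio of -1.04 [-1.25, -0.83], and by Btg2 at -0.91. The others were Mdm4 at -0.71, Perp at -0.62 and Ephx1 at -0.64 [-1.54, 0.21], whose interval includes 0.

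The lymphocyte-like class was made up differently in each library: a cluster led by Trdc and Cd3g held 96 of its 258 cells in CON and 3 of 239 in UV, and the 6 lymphocyte markers summed to 4659 and 1962 CPM. Lymphocyte-like cells had 5 higher and 2 lower of 23, beside 9.66% and 14.1% of all genes, and 5 higher and 1 lower under median-of-ratios scaling. The higher genes were Zmat3, Ei24, Ccng1, Polk and Sesn1, with ratios from 0.64 to 0.95 that rest on 15 to 122 UMIs per library. The lower genes were Plk2 at -0.78 [-1.72, 0.07] and Perp at -0.59 [-1.26, 0.05], whose intervals include 0. With clusters weighted as in CON, 11 genes were higher and 5 lower. No share of all genes at that weighting or under median-of-ratios scaling stands beside these counts. Sebaceous gland-like cells, with 111 cells in CON and 93 in UV, had 5 higher and 1 lower of 25, beside 8.38% and 6.70% of all genes. Plk2 at 0.82 [0.59, 1.06] and Trp53inp1 at 0.77 [0.52, 1.02] were higher there, as in KC-like cells, together with Ephx1, Polk and Rrm2b, and Bcl2l1 was lower at -0.90. With classes taken from marker UMIs alone the ratio turned to -0.98 for Plk2 and -0.39 for Polk, and after thinning that of Bcl2l1 was 0.05.

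Perp was lower in UV than in CON in the FB-like, VEC-like, LEC-like, myeloid-like and lymphocyte-like classes. In these classes Krt14 was at 107 to 140.1 CPM in CON and at 34.1 to 56.6 CPM in UV. In KC-like and sebaceous gland-like cells, where Perp was at 888 and 816 CPM in UV, its ratio of UV over CON was -0.05 and 0.04.

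Cdkn1a, which encodes the cell cycle inhibitor p21 and is a principal p53 target, was at 435, 223 and 228 CPM in FB-like cells (CON, UV and Rux), a log2 ratio of UV over CON of -0.96 [-1.01, -0.92]. In KC-like cells it was at 229.6, 309 and 307 CPM, a ratio of 0.43 [0.40, 0.46], and in VEC-like cells at 922, 1044 and 872 CPM. In CON and UV it was at 996 and 664 CPM in LEC-like, 621 and 445 CPM in myeloid-like, 397 and 193 CPM in lymphocyte-like and 265 and 211 CPM in sebaceous gland-like cells. Values of Cdkn1a and of the further lists below are for whole classes. None is given here within clusters, with clusters weighted as in CON or in cells with under 1% immediate-early UMIs. The part of class makeup and of the immediate-early response in their ratios was not tested.

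Of the 22 further p53 targets, 14 were compared between CON and UV in FB-like cells, with 0 higher and 4 lower, beside 6.22% and 8.55% of all genes, and a median of -0.41. Beside Cdkn1a these were Ddit4, an inhibitor of mTOR signalling, at -1.11, Ptpn14, a phosphatase of the Hippo pathway, at -0.89 and Notch1 at -0.70. In KC-like cells 17 were compared, with 2 higher and 1 lower, beside 4.21% and 3.99% of all genes, and a median of -0.00. Gadd45a, a growth arrest gene, was at 51.0 and 91.2 CPM, a ratio of 0.84 [0.78, 0.90], and Sat1, the polyamine acetyltransferase, had a ratio of 0.86, while Ddit4 was lower at -0.67. In Rux over UV, FB-like cells had 1 higher gene, Ddit4 at 0.65, and 1 lower gene, Gadd45a, at 53.6 CPM in UV and 16.6 in Rux, a ratio of -1.69 [-1.81, -1.58]. The shares of all genes were 3.42% and 5.20% there. KC-like cells had 0 higher and 0 lower of 16, beside 2.29% and 1.77%, with Gadd45a at -0.57.

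Of the 28 further apoptosis genes, 18 were compared between CON and UV in FB-like cells, with 0 higher and 4 lower, beside the same 6.22% and 8.55% of all genes, and a median of -0.36. These were Bok at -0.85, Cycs, which encodes cytochrome c, at -0.68 and the inhibitors of apoptosis Birc3 and Birc2 at -0.80 and -0.67. In KC-like cells 1 of 18 was higher, Bak1, a partner of Bax, at 0.60, and 1 was lower, Birc2 at -0.90, beside 4.21% and 3.99% of all genes. In Rux over UV, 1 of 17 was higher in FB-like cells, Bnip3 at 0.67, and 0 were lower, beside 3.42% and 5.20% of all genes. Of 18 compared in KC-like cells, 0 were past 1.5-fold, beside 2.29% of all genes higher and 1.77% lower. Genes that promote death and genes that protect from it were thus both among those lower in FB-like cells of UV.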

How the data were processed

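Single cells of 3 skin libraries were profiled on the 10x Chromium 3′ platform. The authors aligned the reads to mm10 with Cell Ranger (version 6.1.2 per the labels, 7.0.0 per the file headers) and deposited 1 filtered matrix of raw UMI counts per library. Here, with Python 3.11.15, scanpy 1.11.5, R 4.3.3 and Seurat 5.3.0, cells with at least 200 genes and under 10% mitochondrial counts were kept, and the cells with the highest Scrublet scores were removed at 0.8% per 1000 cells (1269, 1128 and 923 in CON, UV and Rux). Of 2000 variable genes, any of the 34 genes, the further p53 targets and the further apoptosis genes were taken out. Cells were clustered on the rest with 30 principal components at resolution 1.5. The 3 libraries were pooled for this without a step that aligns libraries. No cell annotation was used, so class names were rebuilt from fixed markers, and 12.0%, 9.24% and 8.26% of cells stayed unnamed.

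Counts were summed per class and library with scipy 1.17.1. Levels have exact Poisson intervals, ratios exact conditional binomial intervals and shares Clopper-Pearson intervals, all at 95%. The unit of replication is the library, so cells were not used as replicates and no p-value is given. Simulated counts carried counting error only, at the depths of the FB-like and KC-like sums, with 200 genes per comparison changed 2-fold. For 8153 to 8680 genes, 95.0% to 95.1% of intervals held the true ratio, and 100% of the changed genes passed the 1.5-fold limit. This outcome follows from how the counts were made and checks the arithmetic only. It says nothing about the spread between animals or about the smaller classes. Median depth after filtering was 6140 to 9977 UMIs in fibroblast-like and 17849 to 21414 UMIs in keratinocyte-like cells.

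All 34 genes are accounted for. Of the further lists, genes that reached 10 CPM on average and ranked in the 5 highest or 5 lowest ratios of their list were eligible for naming, and Cdkn1a always. The 34 genes, the lists and the comparisons were chosen with earlier results of these data known. The endothelial, myeloid, lymphocyte and sebaceous comparisons, the restriction to cells with under 1% immediate-early UMIs and that to keratinocyte-like clusters with at least 50 cells in every library were added after the data had been seen. Promoter windows came from RefSeq.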

Additional observations from a re-analysis of the deposited data

How the results depend on the processing

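With 1 library per condition, no setting measures the spread between animals, and no paired analysis was possible because each condition has 1 library. Of 618 ratios between libraries recomputed for genes past 1.5-fold, 5 changed sign. They were Trp53inp1 in KC-like cells of UV over CON (-0.05 in cells with under 1% immediate-early UMIs) and Fas in LEC-like cells (0.05 at equal weight per cell). The others were Plk2 and Polk in sebaceous gland-like cells (-0.98 and -0.39 with classes from marker UMIs alone) and Bcl2l1 there (0.05 after thinning). Ratios of FB-like over KC-like cells are not among the 618. Of those, Btg2 in CON, at 0.65, changed sign under 1 of 12 other settings, at -0.23. The causes were not tested. The counts of genes past the fold limit that moved by over 1.5 times were as follows. They stand without shares of all genes under the changed setting. In FB-like cells of UV over CON, 1 gene in place of 0 was higher under the strict cell filter and under median-of-ratios scaling, and in place of 9 lower genes there were 14 with a minimum of 10 UMIs, 5 at 2-fold and 5 with clusters weighted as in CON. In FB-like cells of Rux over UV, in place of 5 higher genes there were 3 after thinning, 0 at 2-fold, 3 at equal weight and 2 with weighted clusters, and in place of 1 lower gene 0 at 2-fold and 2 with weighted clusters. In KC-like cells of UV over CON, in place of 4 higher genes there were 0 at 2-fold and 2 at equal weight, and in place of 2 lower genes 0 with marker UMIs alone and at 2-fold and 1 after thinning, at equal weight, with weighted clusters and in the clusters with at least 50 cells in every library. In KC-like cells of Rux over UV, 1 gene in place of 0 was higher after thinning, and in place of 2 lower genes there were 0 at 2-fold and 1 under the strict and loose filters, at resolution 0.8, with weighted clusters and in cells with under 1% immediate-early UMIs. For FB-like over KC-like cells, in UV 2 higher genes became 5 with a minimum of 10 UMIs and 4 in cells with under 1% immediate-early UMIs and 14 lower genes became 9 under median-of-ratios scaling and at 2-fold, in Rux 4 higher genes became 10 under median-of-ratios scaling and 7 with weighted clusters, and in CON neither count moved by over 1.5 times. In VEC-like cells 9 higher genes became 14 with marker UMIs alone, 5 after thinning and 2 at 2-fold, and 1 lower gene became 2 with marker UMIs alone and with a minimum of 10 UMIs, 3 after thinning and 4 in cells with under 1% immediate-early UMIs. In LEC-like cells 2 higher genes became 1 without doublet removal and under median-of-ratios scaling, 5 with marker UMIs alone and in cells with under 1% immediate-early UMIs, 6 after thinning and with a minimum of 10 UMIs, 0 at 2-fold and 4 at equal weight, and 3 lower genes became 6 with a minimum of 10 UMIs and in cells with under 1% immediate-early UMIs and 1 at 2-fold. In myeloid-like cells 0 higher genes became 2 with marker UMIs alone and after thinning and 1 at equal weight, and 5 lower genes became 3 under the strict filter, under median-of-ratios scaling and in cells with under 1% immediate-early UMIs, 2 with marker UMIs alone and 1 at 2-fold. In lymphocyte-like cells 5 higher genes became 3 without doublet removal, 0 at 2-fold and 11 with weighted clusters, and 2 lower genes became 1 under the strict filter, under median-of-ratios scaling, at equal weight and in cells with under 1% immediate-early UMIs, 6 with marker UMIs alone, 4 after thinning, 0 at 2-fold and 5 with weighted clusters. In sebaceous gland-like cells 5 higher genes became 3 under the loose filter, with marker UMIs alone and in cells with under 1% immediate-early UMIs, 8 after thinning, 0 at 2-fold and 2 with weighted clusters, and 1 lower gene became 3 with marker UMIs alone, after thinning and with a minimum of 10 UMIs, 2 under the loose filter, at equal weight, with weighted clusters and in cells with under 1% immediate-early UMIs and 0 at 2-fold. The strict filter left no sebaceous gland-like cells and gave no value there.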
